A study of Drosophila melanogaster with 23 samples.

Results

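The transcripts described here are bright in every sample, nearly constant among control wing discs and uneven among *Myb* mutant wing discs. A transcript was taken when all 6 biological replicates had a signal of at least 500, the SD of the log2 signal was at least 0.4 over the 3 mutant replicates and at most 0.15 over the 3 control replicates, and the group means differed by less than 1 on the log2 scale. These 4 conditions selected 66 of the 21051 transcripts on the array, or 66 of the 8926 that were at 500 or more in all 6 replicates. The signals themselves chose the members, so their spread and their levels are given as a description and were not tested.

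RNA came from wing imaginal discs of late 3rd instar male *Drosophila melanogaster* larvae. The mutants were hemizygous for Df(1)MH107, w1118, a null allele that removes the 5′ end of *Myb* and the neighbouring gene *AlkB* and is lethal before adulthood, on a chromosome with a *white* mutation. Mutant males were recognised by the absence of the GFP balancer. The controls were males of y1 w67c23, the laboratory line (*yw*) to which the mutant stock had been outcrossed. Each genotype had 3 biological replicates with 4 arrays each, except control replicate 3 with 3 arrays, which made 12 mutant and 11 control arrays. Array signals of 1 replicate were averaged on the log2 scale, and replicate means are the values below.

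Wing discs are epithelial sacs that grow through larval life and turn into the adult wing and part of the thorax at metamorphosis, a change driven by pulses of the steroid hormone ecdysone. Myb is the only fly member of its family of DNA-binding proteins and works in a large complex with E2F and retinoblastoma family proteins, where it is needed for genes of mitosis. Whole discs were measured, so that fewer cells of a type and less RNA per cell cannot be told apart.

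Mutant replicate 3 stood apart from the other mutant samples across the array. Over the 8926 bright transcripts, mutant replicates 1 and 2 correlated at 0.998, and only 5 transcripts differed between them by 0.5 or more on the log2 scale. Mutant replicate 3 differed by that much from replicate 1 in 802 transcripts and from replicate 2 in 455. The 3 pairs of controls differed by that much in 33 to 100 transcripts. Array medians lay between 996 and 1060 signal units. The genotype labels were borne out by the deleted locus, since *Myb* measured 4586 to 4929 in the mutants and 15119 to 16233 in the controls, and *AlkB* measured 46.6 to 50.9 and 608 to 758. Neither gene set mutant replicate 3 apart. The tissue label could be checked only in part, because 1 of the 24 wing disc genes listed, *eyg*, was identified. It measured 7787 to 8322 in the mutants and 8807 to 10009 in the controls.

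All 66 members departed in the same sample. The departing replicate of a transcript is the mutant replicate with the larger gap to the middle one of the 3 values, and it was mutant replicate 3 in 66 of 66. Of these, 56 members were higher and 10 were lower in mutant replicate 3 than in the other mutants. Among all bright transcripts mutant replicate 3 was the departing one in 74.4%, upward in 35.1% and downward in 39.3%. Without mutant replicate 3 the rule selected 0 transcripts, so the membership rests on that sample. With each array centred on its median, 51 transcripts passed, 35 higher (68.6%) and 16 lower in mutant replicate 3, against the 84.8% higher under the signals as deposited.

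**Figure D1:**
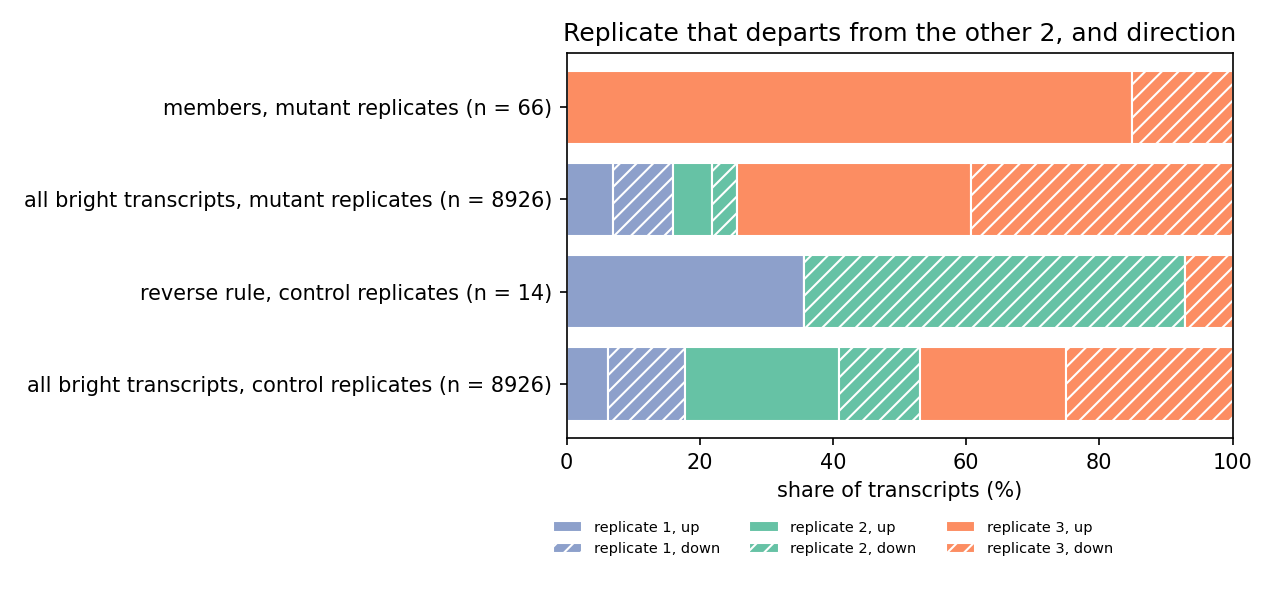
Each bar splits a set of transcripts by the replicate that departed from the other 2 and by its direction, as the share of transcripts in percent; plain fill is upward and hatched fill is downward. Mutant replicate 3 fills the whole bar of the 66 members, against 74.4% of all 8926 bright transcripts, and the 14 transcripts of the reverse rule divide among the 3 control replicates.

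Arrays of the same replicate lay close together. In all 66 members every one of the 4 arrays of mutant replicate 3 lay beyond all 8 arrays of mutant replicates 1 and 2, which held for 48.5% of all bright transcripts. The SD between the arrays of mutant replicate 3 had a median of 0.0672 over the members, against 0.0633 over all bright transcripts. The departure was single, with the larger gap at least 2 times the smaller, in 62 members, against 71.9% of all bright transcripts. The 4 graded members were all among the 10 lower ones. The minimum on the mutant SD bears on the counts of separated arrays and of single departures, and nothing is read from them.

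Few transcripts met the mirror image of the rule. With the genotypes exchanged, 14 transcripts were variable among the controls and steady among the mutants. In 8 of them control replicate 2 was low, in 5 control replicate 1 was high and in 1 control replicate 3 was low. An SD of 0.4 or more was found in 184 bright transcripts over the mutants and in 44 over the controls. Of the 184, mutant replicate 3 was the high one in 125 and the low one in 56, and in the other 3 mutant replicate 2 was low. Both SDs reached 0.4 in 9 transcripts. The median SD over all bright transcripts was 0.104 in the mutants and 0.0631 in the controls.

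**Figure D2:**
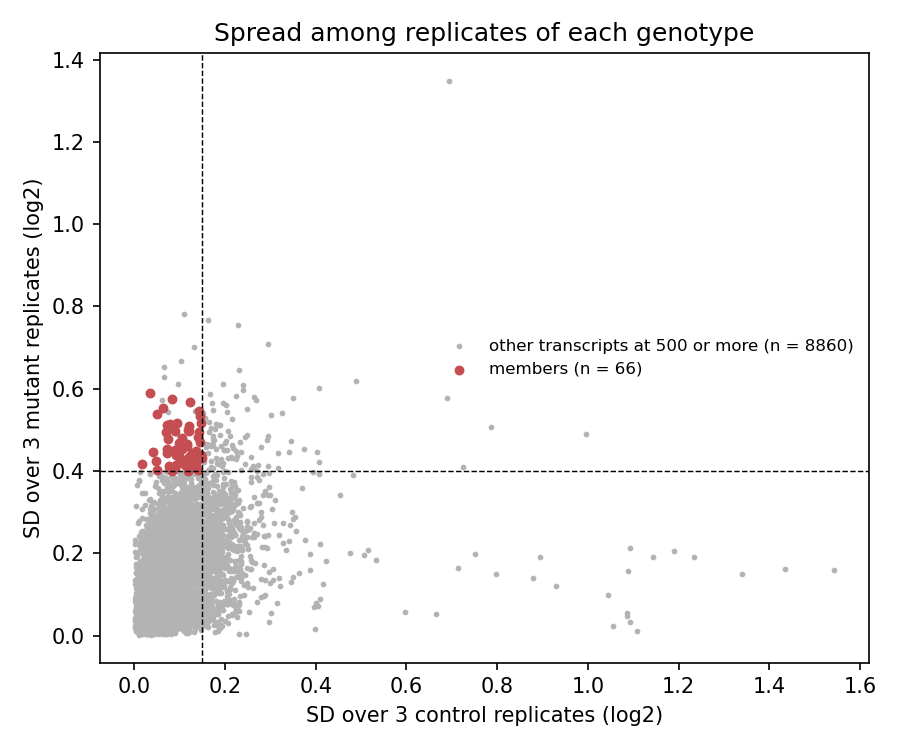
Each point is 1 of the 8926 bright transcripts, plotted by the SD of its log2 signal over the 3 control replicates (horizontal) and over the 3 mutant replicates (vertical), with the 66 members in red and the limits of 0.15 and 0.4 as dashed lines. The members fill the corner just above the mutant limit, with mutant SDs from 0.40 to 0.59.

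The limits cut through a continuous range of values. The mutant SD of the last member was 0.40004 and that of the first transcript outside was 0.39939. The largest control SD among the members was 0.148 and the next one outside was 0.151. The lowest signal of a member in any replicate was 554, and the nearest transcript left out had 490. The largest difference of means among the members was -0.95, in *CG13082*, and the nearest one outside was -1.02, in a second transcript of *Glut1*.

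Most members were dim among the transcripts that passed. When the bright transcripts were divided into 5 groups of like number by mean signal, from dimmest to brightest, the groups held 44, 15, 3, 2 and 2 members. The dimmest group ran from 539 to 1933 signal units, and its distances of mutant replicate 3 from the other mutants had an SD of 0.37 (log2), against 0.17 in the brightest group. The part that signal played in the membership was not tested. The mean signal of the members ran from 647 to 15863 with a median of 1281, against a median of 5336 for all bright transcripts.

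The files give transcript identifiers with no gene names. Names were at hand for 1999 transcripts, those that the study ranked first by its p-value between genotypes, so that transcripts differing between mutant and control were favoured. Only 4 of the 66 members had a name, against 14.6% of all bright transcripts, and all 4 were among the lower ones. The 56 higher members therefore have no gene name or function here.

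The sizes of departure of the 56 higher members are given as a description. The minimum on the mutant SD sets the lower end of their range, and nothing is read from its width. Mutant replicate 3 was above the mean of the other mutants by 0.69 to 1.01 on the log2 scale, with a median of 0.76, or a median of 1.70-fold. The median signal over these members was 967 in mutant replicate 1, 1027 in replicate 2 and 1726 in replicate 3, and 1063, 1068 and 1173 in controls 1 to 3. The first 2 mutant replicates thus lay on the low side of the controls and the third on the high side. Relative to the control mean the medians were -0.23, -0.13 and 0.61 in mutant replicates 1, 2 and 3, and -0.01, -0.09 and 0.09 in the controls.

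The control range lay between the mutant replicates in about as many members as not. Mutant replicate 3 exceeded all 3 controls in 54 of the 56, fell below all of them in 1 and lay within their range in 1, against 42.7%, 39% and 18.3% of all bright transcripts. Mutant replicates 1 and 2 were both below all controls in 31 (26% of all bright transcripts) and both above in 2 (27.3%). In 29 members mutant replicates 1 and 2 were below and mutant replicate 3 was above every control, which was found in 6.74% of all bright transcripts. The differences of genotype means ran from -0.59 to 0.65 with a median of 0.09, and the rule itself kept them under 1. That limit and the minimum on the mutant SD also bear on the counts of this layout, and nothing is read from them.

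**Figure D3:**
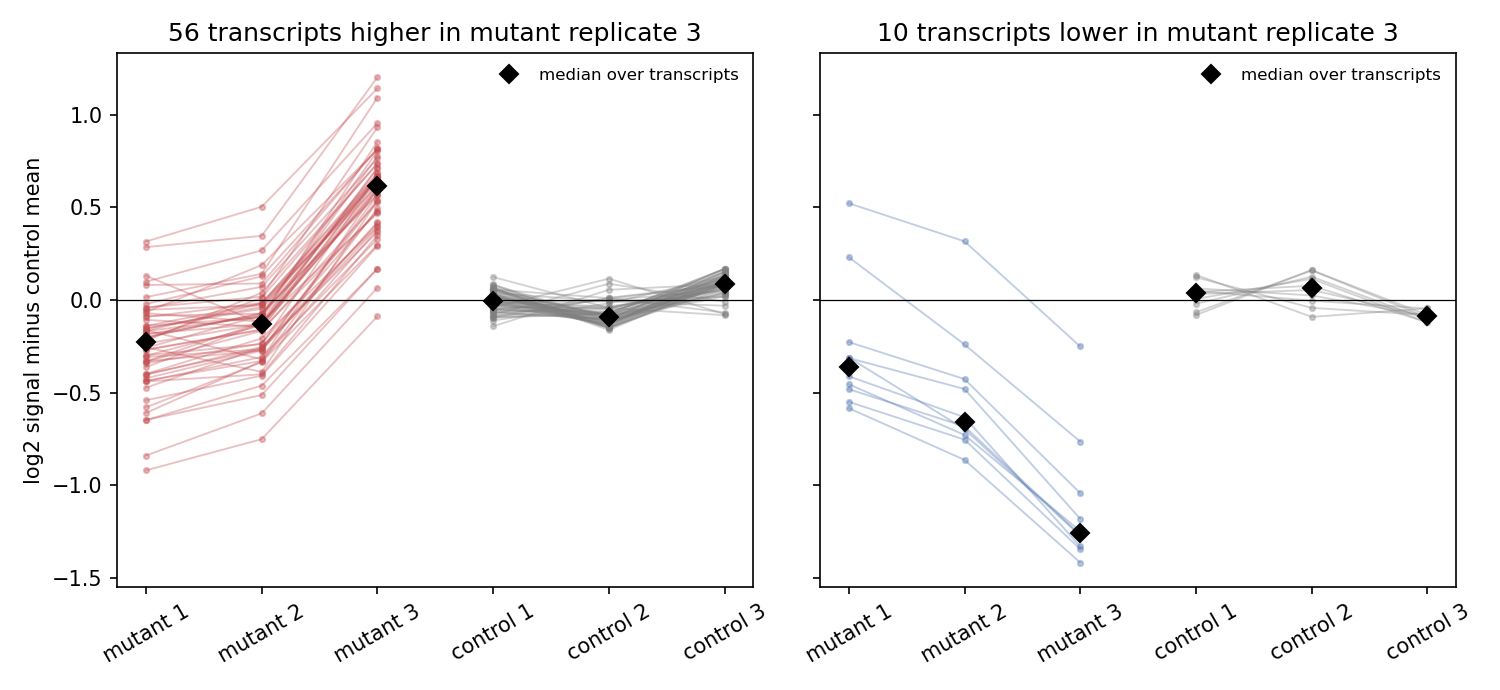
Log2 signal minus the control mean of the transcript (vertical) is plotted for each replicate mean (horizontal), with 1 line per transcript and genotype, for the 56 members higher (left) and the 10 members lower (right) in mutant replicate 3; black diamonds are medians over transcripts, and the lines only join the values of 1 transcript. The left medians are -0.23, -0.13 and 0.61 in the mutants, and the right ones are -0.36, -0.66 and -1.26.

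The largest departure was in FBtr0074235. Its signal was 771, 842 and 1627 in mutant replicates 1, 2 and 3 and 783, 759 and 747 in controls 1, 2 and 3. Mutant replicates 1 and 2 were close to the controls, and only mutant replicate 3 was high, 1.01 above the other mutants (2.02-fold). Its 4 arrays measured 10.55 to 10.93 on the log2 scale, whereas the 8 arrays of mutant replicates 1 and 2 measured 9.50 to 9.94. The brightest member, FBtr0273293, had a different layout. Its signal was 12408, 13620 and 21482 in the mutants and 16578, 14819 and 17867 in the controls. Mutant replicates 1 and 2 were below every control and mutant replicate 3 was above every control, so that the genotype means differed by only -0.09.

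Replicates within each genotype also had a repeated order. Mutant replicate 1 was below replicate 2 in 51 of the 56 higher members and in 0 of the 10 lower ones, against 52.9% of all bright transcripts. The difference was small, with a median of 0.12 (log2) over the higher members. Control replicate 3 was the highest control in 45 of the 56 higher members (35.9% of all bright transcripts) and control replicate 2 was the lowest in 41 (27.3%) and the highest in 2 (45.6%). In the 10 lower members control replicate 3 was the lowest control in 8 (43.8%) and the highest in 0. Control replicate 3 lay above the mean of the other controls by a median of 0.13 over the higher members and differed from it by a median of -0.13 over the lower ones. Control replicate 3 thus differed from the other controls in the direction in which mutant replicate 3 differed from the other mutants. This was not particular to the members. Deviations of mutant and control replicate 3 from their group means correlated at 0.61 over all bright transcripts and at 0.73 over the members. The order of replicates 1 and 2 was not shared, as the higher members had medians of -0.01 in control 1 and -0.09 in control 2 relative to the control mean.

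The 10 lower members were mostly below the controls in every mutant replicate. Mutant replicate 3 was under the mean of the other mutants by 0.66 to 0.81 on the log2 scale, a median of 1.63-fold. Their median signals were 2348, 1952 and 1309 in mutant replicates 1, 2 and 3 and 3115, 2875 and 2799 in controls 1, 2 and 3. Mutant replicate 3 was below all controls in 10 of 10, and all 3 mutant replicates were below all controls in 8 of 10, against 15.2% of all bright transcripts. Replicate 2 was lower than replicate 1 and higher than replicate 3 in each of the 10. The difference of genotype means had a median of -0.78 and reached -0.95, just inside the limit of the rule.

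Tet is the fly member of the family of Ten-Eleven Translocation dioxygenases, which act on modified bases of nucleic acids. *Tet* (FBtr0113128, chromosome arm 3L) measured 6083, 5291 and 3527 in mutant replicates 1, 2 and 3 and 8869, 8637 and 7986 in the controls. All mutants were below all controls, and mutant replicate 3 was the lowest by a distance of -0.69 (log2) from the other mutants. It was the brightest of the 4 named members.

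Glut1 is a glucose transporter of the plasma membrane. *Glut1* (FBtr0072618, chromosome arm 3L) measured 1781, 1547 and 1027 in the mutants and 2667, 2707 and 2455 in the controls. The groups did not overlap, and mutant replicate 3 lay -0.69 from the other mutants. The second transcript of the gene, FBtr0113121, measured 991, 849 and 520 in the mutants and 1596, 1661 and 1381 in the controls, which is the same layout with a distance of -0.82. It was left out only because its means differed by -1.02. The transcripts belong to 1 gene and can share probes and RNA, so they are not 2 separate observations.

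The other two named members encode proteins for which no role is given here. *CG13082* (FBtr0081251, chromosome arm 2L) measured 2832, 2334 and 1590 in the mutants and 4391, 4234 and 4112 in the controls. Its control SD of 0.0474 was the smallest of the lower members. *CG9896* (FBtr0071988, chromosome arm 2R) measured 3185, 2635 and 1838 in the mutants and 4169, 4877 and 4088 in the controls. Both genes had mutant values that did not reach any control. Both departures were graded, since the larger gap was less than 2 times the smaller one.

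**Figure D4:**
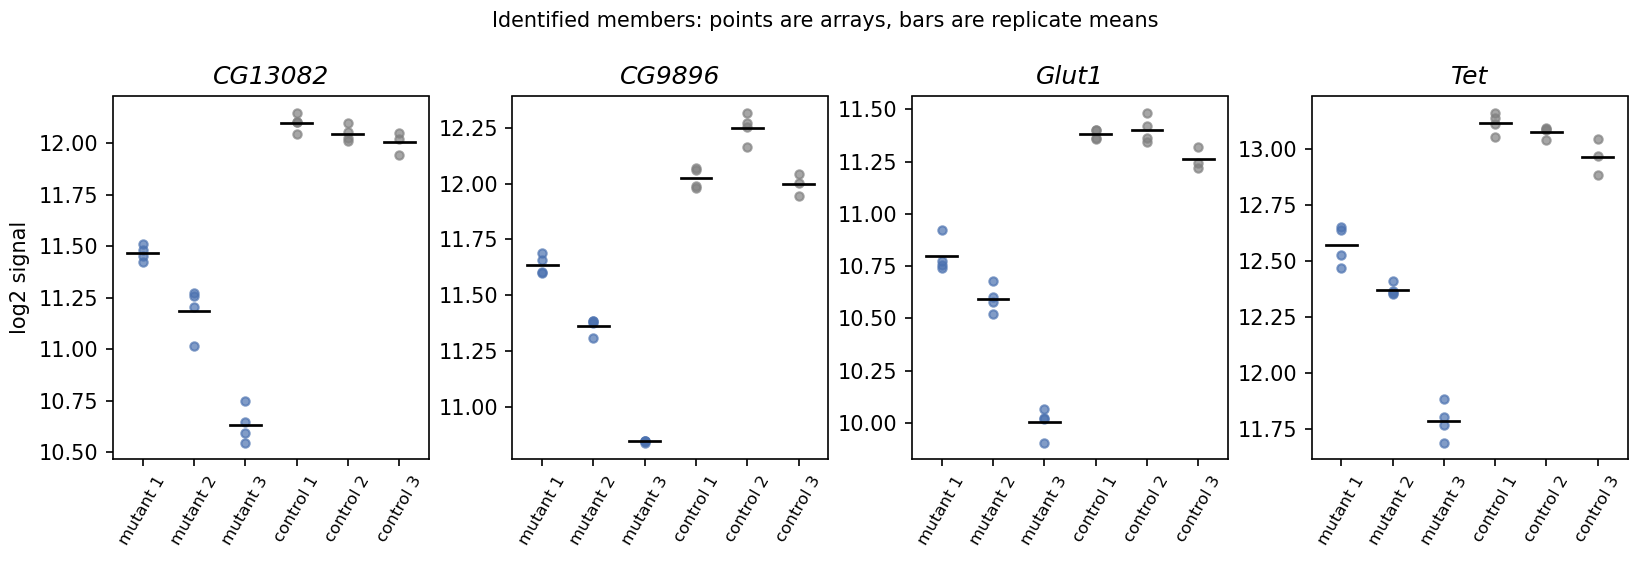
Log2 signal (vertical, 1 scale per gene, not starting at 0) of the 4 named members on each array (points) with replicate means (bars), for mutant replicates 1 to 3 in blue and control replicates 1 to 3 in grey (horizontal). In each gene the 4 arrays of mutant replicate 3 lie below all other arrays, and no mutant replicate mean reaches a control mean.

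Among the 6 lower members with no name, FBtr0114583 had the largest distance. It measured 3164, 2714 and 1674 in the mutants and 4337, 4440 and 3870 in the controls, with a distance of -0.81. FBtr0114582 had the lowest single value of the 10 lower members, with 1148, 1022 and 629 in the mutants and 1406, 1556 and 1325 in the controls. Both had mutant groups wholly below the controls. The exceptions were another pair of unnamed members. In one, mutant replicates 1 and 2 (1285 and 1115) were above all controls and mutant replicate 3 (752) was below the lowest control (823). In the other, mutant replicate 1 (3806) was the highest of the 6 values, replicate 2 (2746) was under the lowest control (3044) and replicate 3 (1910) was the lowest.

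The comparison of the genotypes uses the values that chose the members, and its counts are given as a description. The test was limma's moderated test on the 6 replicate means with Benjamini-Hochberg adjustment over 16637 transcripts, and a transcript was called when it also reached a signal of 500 in at least 1 replicate. At an adjusted p under 0.001 limma called 0 of the 66 members, against 1.41% of all tested transcripts, and 11 members had an unadjusted p under 0.05 (14.6% of all tested). At an adjusted p under 0.05 it called 2 members, *CG13082* and *Glut1*, both lower in the mutants, against 6.41% of all tested, with 2.98% called lower and 3.43% called higher. With the replicate number as a block the counts were again 0 (0.367%) and 2 (5.65%, with 2.7% lower and 2.95% higher). An intensity trend with a robust prior called 0 (2%) and 4 (7.67%), and the methods' t-test after adjustment called 0 (0.102%) and 0 (4.53%), with 0 also at an unadjusted p under 0.001 (2.95%). The mutant and control ranges did not overlap in 11 members (8 lower and 3 higher ones), against 32.8% of all bright transcripts, and all mutants were above all controls in 2 of these (17.6%). Both the limit on the difference and the minimum on the mutant SD enter this contrast, and nothing is read from these counts.

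Transcripts that met every condition except the limit on the difference behaved like the lower members. There were 13 such transcripts of 10 genes, all with names. The departing sample was mutant replicate 3 in each, downward in 11 and upward in 2. The distances of the 11 ran from 0.67 to 1.34 below the other mutants. They were chosen by the same values as the members and are likewise described without a test of their spread.

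Of the 13, 5 transcripts, from *Blimp-1*, *Eip78C* and *ImpE1* alone, belong to a list of genes that respond to ecdysone. The list held 14 of the 1301 named bright transcripts and was chosen with earlier results of these data known. Transcripts of 1 gene are not separate observations. Blimp-1 is a zinc finger repressor induced by the hormone that times events of the prepupal stage. *Blimp-1* measured 5255, 4498 and 1918 in the mutants and 15483, 13303 and 14177 in the controls, and mutant replicate 3 lay -1.34 from the other mutants, the largest of these distances. Eip78C is a nuclear receptor of the ecdysone cascade, and its transcripts FBtr0078307 and FBtr0078308 had distances of -1.04 and -1.12. *ImpE1*, an ecdysone-inducible gene of imaginal discs, was at 12823, 11617 and 6879 in the mutants against 22371, 21992 and 20423 in the controls for FBtr0076606, and FBtr0076607 had a distance of -0.94. *E23*, an ecdysone-induced gene for an ABC transporter, was not on the list and measured 1618, 1352 and 927 in the mutants against 2835, 2755 and 2567 in the controls.

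Others of the 13 were not on that list. *sm*, which encodes an RNA-binding protein, had a distance of -1.15, and *uncNacbeta* and *CG13023* had distances of -0.93 and -0.92. The gene that went the other way was *regucalcin*. Its transcript FBtr0073575 measured 3066, 2507 and 6319 in the mutants against 22414, 22823 and 26475 in the controls. Its transcript FBtr0073578 measured 969, 811 and 1858 in the mutants against 5825, 6371 and 6129 in the controls, a distance of 1.07. Mutant replicate 3 was the closest of the mutants to the controls there, whereas in the 11 downward transcripts it was the farthest.

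No member belonged to any of the gene lists. The lists (pathways and cell type markers) were chosen with earlier results of these data known, and only named transcripts could be matched, so 0 of 66 describes the 4 named members alone. The lists could still show how mutant replicate 3 compared with the other mutants in known groups of genes. They are given as counts over the named transcripts at 500 or more in all 6 replicates. Over all 1301 of these, mutant replicate 3 was the lowest mutant in 50.3% and the highest in 37.2%, and among the 563 with a lower mean in the mutants it was the lowest in 62.5%.

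Ecdysone response transcripts were low in mutant replicate 3. Of 14 bright transcripts, mutant replicate 3 was the lowest mutant in 12 and the highest in 0. The median distance was -0.27, against -0.02 over all named bright transcripts and -0.09 over those lower in the mutants. Some were lowest by very little, as *br* FBtr0070267 at 6560, 6939 and 6549 in the mutants. At any signal mutant replicate 3 was the lowest in 19 of 22. The 22 transcripts belong to 13 genes, and transcripts of 1 gene are not separate observations. Hr4 and Hr3 are nuclear receptors that act in the cascade set off by the hormone. *Hr4* (FBtr0100515) measured 2498, 2306 and 959 in the mutants against 9013, 7311 and 8722 in the controls, and it missed the rule also by its control SD of 0.162. The 4 transcripts of *Hr3* were too dim for the rule, and the brightest in the controls, FBtr0088367, measured 441, 605 and 116 in the mutants against 2569, 1888 and 1814 in the controls.

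Other genes of the list were spread much less. *Eip75B*, another nuclear receptor gene, was at 16260, 15748 and 12803 in the mutants against 21014, 21933 and 20312 in the controls. *ImpE3* was nearly equal among the mutants at 5457, 5350 and 5440, and below the controls at 10116, 8855 and 10597. The exception in direction was *ftz-f1*, which encodes a nuclear receptor that marks the prepupal stage. It measured 9702, 10283 and 10172 in the mutants, all above the controls at 3282, 3873 and 3263, and mutant replicate 3 did not depart. At a limma adjusted p under 0.05, 17 of the 22 transcripts were called lower and 1 higher in the mutants, against 2.98% and 3.43% of all tested transcripts and 24.7% and 28.4% of the 1999 named ones. With the replicate block 11 were called lower and 1 higher, against 21.9% and 23.4% of the named ones. The names come from a ranking by the same comparison in the same samples, so that these counts are not independent evidence of a direction.

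**Figure D5:**
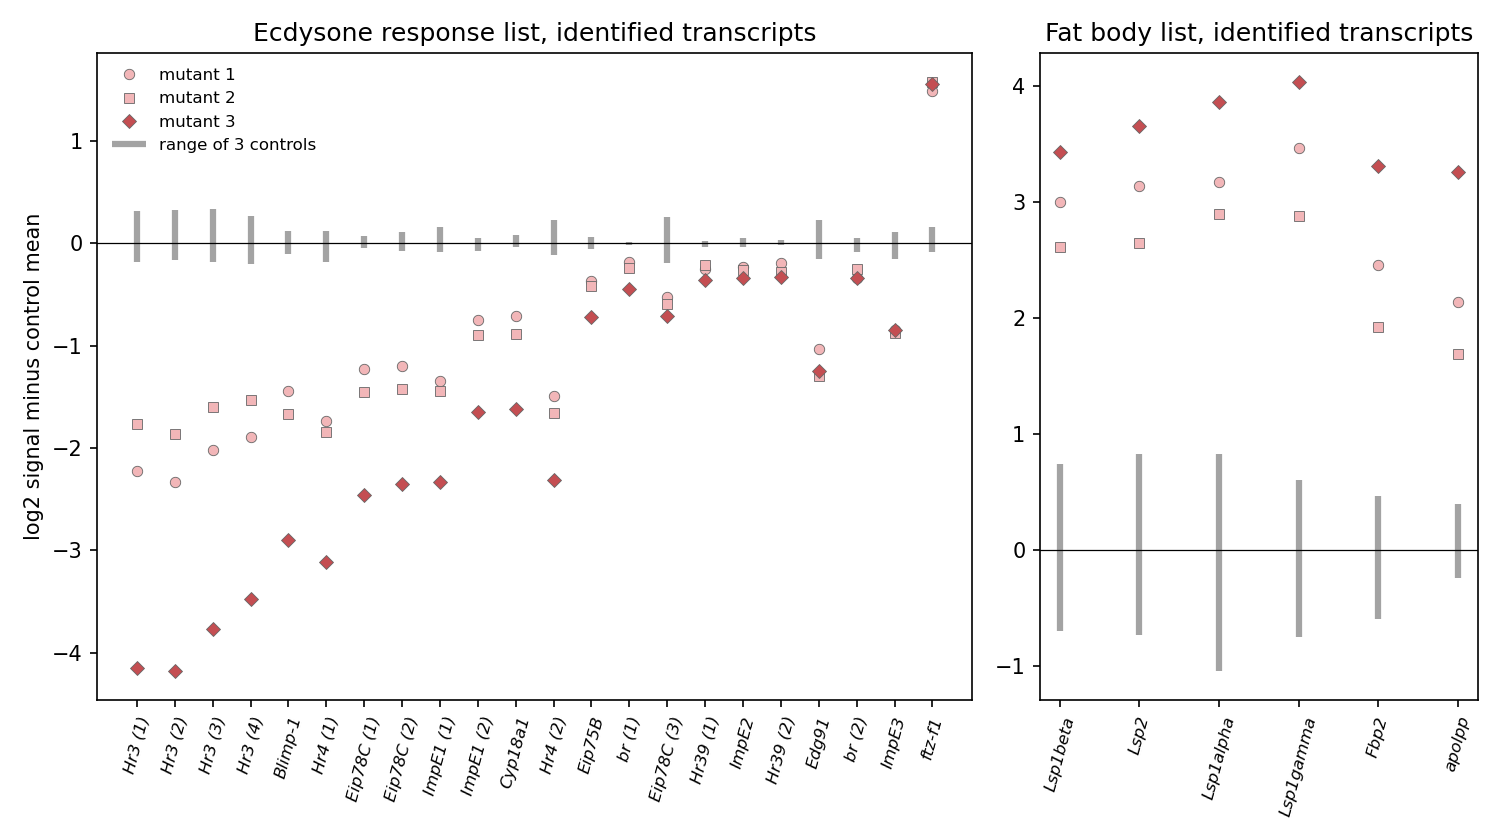
Log2 signal minus the control mean (vertical) of each named transcript of the ecdysone response list (left, 22 transcripts) and the fat body list (right, 6 transcripts) in mutant replicates 1, 2 and 3, with grey bars for the range of the 3 controls; transcripts (horizontal) are sorted by the distance of mutant replicate 3 from the other mutants, and numbers in brackets tell apart transcripts of 1 gene. Mutant replicate 3 is the lowest mutant in 19 of the 22 ecdysone transcripts and the highest mutant in all 6 fat body transcripts.

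Markers of fat body, the larval storage tissue that lies near the discs, were highest in mutant replicate 3 but also differed between mutant replicates 1 and 2. The list holds 16 genes, of which 6 were named, with 1 transcript each. Their summed signal was 63982, 46945 and 93269 in mutant replicates 1, 2 and 3 and 7714, 12132 and 4414 in controls 1, 2 and 3. The highest of the 6 sums was thus that of mutant replicate 3 and the lowest that of control replicate 3. *Lsp2*, which encodes a storage protein of the larval blood, measured 14619, 10375 and 20929 in the mutants and 1562, 2939 and 993 in the controls. Among the 3 markers at 500 or more in all 6 replicates, the departing replicate of *Lsp1gamma* was mutant replicate 2, downward. Its gaps were nearly equal, at 0.59 and 0.56. In *Lsp1beta* and *Lsp2* it was mutant replicate 3, upward, with gaps of 0.43 and 0.39 and of 0.52 and 0.49. All 3 departures were graded. *apolpp*, which encodes the carrier of lipids in the blood, measured 506, 370 and 1098 in the mutants and 103, 150 and 97.0 in the controls. None of the 6 is a member, with control SDs from 0.34 to 0.95 and means that differed by 2.36 to 3.46. All 6 were called higher in the mutants at a limma adjusted p under 0.05 and 3 with the replicate block, against 28.4% and 23.4% of all named transcripts. Among the mutants these markers ran replicate 3 above 1 above 2. In the higher members replicate 1 was below replicate 2 in 51 of 56, with a small median difference of 0.12 (log2). The part of the fat body markers in the members' values was not tested.

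Other lists differed in the direction and size of the departure. The summed signal of 15 named hemocyte (blood cell) transcripts was 28159, 27221 and 25676 in the mutants and 99304 to 116457 in the controls, so that the mutant sums were close. *Col4a1*, at 14891, 15038 and 13955, made the largest part of the mutant sums. Single transcripts differed, as *PPO2* was uneven at 150, 242 and 105 in the mutants and *Tig* was steady at 1295, 1260 and 1300. Of 32 bright cell cycle transcripts mutant replicate 3 was the highest mutant in 22 and the lowest in 7, with a median distance of 0.08. Of 7 bright transcripts of adult muscle precursors mutant replicate 3 was the lowest mutant in 6, with a median distance of -0.17. These belong to 5 genes, and the cuticle list also holds more than 1 transcript of *Cpr49Ac*. Transcripts of 1 gene are not separate observations. Over all named bright transcripts mutant replicate 3 was the lowest mutant in 50.3% and the highest in 37.2%. Among those with a lower mean in the mutants it was the lowest in 62.5%. Of 4 bright cuticle transcripts it was the lowest in 3, with a median of -0.33 and with *TwdlT*, a cuticle protein gene, at 1383, 1275 and 696 in the mutants. It was not a member, since the controls varied as well (3414, 3196 and 2246) and the means differed by -1.44. For 3 heat shock and chaperone transcripts the median was 0.17. No transcript of the gut, salivary gland or histone lists was named, and these were not checked.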

How the data were processed

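RNA from 6 biological replicates was measured on 23 one-color NimbleGen arrays (random-primed, Cy3-labelled cDNA). The authors processed the arrays with RMA, which corrects background, equalizes distributions and combines probes, as named in the submitters' processing notes, with the ArrayStar software per the methods. The deposited table gave each transcript 1 linear signal intensity per array. Detection flags, slides, scan dates and the genome build were not given in the sources used here. No column of per-sample values was left out (0 columns). Columns of the study's own comparisons were not used.

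Genotype and replicate came from the sample titles, and no source says whether biological replicates were separate cultures of larvae, so p-values measure the spread between these samples. A design text states only that 1 wild-type replicate had 3 arrays, and the titles place it at control replicate 3. Of 21051 transcripts, 4414 held 1 constant value and 16637 were tested. Intensities were converted to log2 and averaged per replicate (pandas 2.3.3), with no pseudocount. limma 3.58.1 (R 4.3.3) compared the 6 means, two-sided, with Benjamini-Hochberg adjustment. The number of arrays limits the precision. The rule and the limma step were tested on simulated data.

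The members and the gene lists were chosen with earlier results of these data known. Every named member was to be described, up to the 25 with the largest mutant SD, with those in a list and those nearest each limit. Gene names came from the identity columns of a supplementary sheet held in part (1999 transcripts of 1752 genes, 98.1% of the symbols in RefSeq Release 6). The values of 1 transcript beyond the difference limit are not reported here. Coordinates and sequences were not analysed here, and a planned search for promoter motifs was not run. After group means were removed, mutant and control replicates of equal number correlated at 0.20, 0.18 and 0.28 over tested transcripts, and the number was fitted as a block as an alternative. Over bright transcripts mutant replicate 1 correlated at 0.18 with control replicate 1 and at 0.44 with control replicate 2. Mutant replicate 3 correlated there at 0.61 with control replicate 3. The labels give no source for a pairing. Other alternatives were the median of arrays or the first array alone, array centring, a second quantile normalization, other limits of the rule, other call thresholds and tests, and each replicate left out.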

Additional observations from a re-analysis of the deposited data

How the results depend on the processing

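The member count of 66 depended on the limits of the rule and on mutant replicate 3. A signal minimum of 1000 gave 33 members, no minimum 127, a mutant SD of at least 0.5 or 0.3 gave 12 or 297, and a control SD of at most 0.1 or 0.2 gave 28 or 108. Mutant replicate 3 departed in 33, 122, 12, 295, 28 and 108 of these. Leaving out 1 replicate, with the SD then taken over 2 samples, gave 0 to 280 members. The lowest count was without mutant replicate 3. Omitting mutant replicate 1 or 2 gave 124 or 280, and omitting control replicate 1, 2 or 3 gave 44, 102 or 114. With a control replicate left out mutant replicate 3 departed in all 44, 102 and 114. The median of arrays and the first array alone each gave 73 members (61 and 48 of the 66 among them), centring 51 (45 among them), a second quantile normalization 54 (47 among them), and no limit on the difference 79, each time with mutant replicate 3 departing in all. Of the members, 0 were called under 10 alternatives, and 2 at an adjusted p under 0.05. Over the whole table limma called 234 transcripts, 61 with the replicate block, 1066 at an adjusted p under 0.05, 17 and 490 by the methods' t-test with and without adjustment, and 71 to 317 with 1 replicate left out (omitting mutant replicate 1, 2 or 3 left 71, 71 or 121, and omitting control replicate 1, 2 or 3 left 106, 317 or 103). The distances of the 4 named members moved by less than the SD of mutant replicates 1 and 2 under all 4 alternatives. The count of 12 ecdysone transcripts lowest in mutant replicate 3 was 12 or 13 under 3 alternatives chosen after seeing the data. The cause of each change beyond the limits themselves was not tested. Slide and scan effects were not analysed here. The distances of mutant replicate 3 from the other mutants spread most in the dimmest group of bright transcripts. The precision of values near the minimum of 500 was not tested.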
